A study of Mus musculus with 8 samples.

Results

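The comparison described here is that of Id2-GFP+ against Id2-GFP- cells within pre-CD8, a dendritic cell progenitor of mouse bone marrow that the labels name without giving its sort gate. It rests on 4 of the series' 8 expression arrays, chosen by their titles, with 2 arrays of Id2-GFP+ pre-CD8 cells and 2 of Id2-GFP- pre-CD8 cells. The other 4 arrays hold the same reporter classes of CDP (common dendritic cell progenitor) and are used for a shared estimate of the spread and for 1 comparison near the end. The stated purpose was to profile expression across dendritic cell progenitors and to order them in time. The sample sources give an Id2-IRES-GFP reporter mouse for all 4 pre-CD8 samples, while the genotype field of the same 4 samples names heterozygous Zbtb46-GFP reporter mice. For CDP, the genotype field names the Id2-IRES-GFP reporter for Id2-GFP- cells and the Zbtb46-GFP reporter for Id2-GFP+ cells. The groups were therefore taken from the titles, and no treatment, age or time point separates them. Whether replicates are separate animals is not in the labels, and the p-values therefore cover the spread between these arrays alone, which may be technical.

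Id2 belongs to the Id proteins, which have a helix-loop-helix domain but no DNA-binding region. They bind E proteins such as E2A and Tcf4 and keep them from DNA. E proteins support the early B and T lymphoid programmes, including recombination of antigen receptor genes, and Tcf4 is needed for plasmacytoid dendritic cells (pDC). Id2 is needed for cDC1, the conventional dendritic cells that take up dead cells and cross-present their antigens to CD8 T cells, and a rise of Id2 is a known mark of commitment to that lineage.

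The 4 arrays are called N1 and N2 (replicates 1 and 2 of Id2-GFP- pre-CD8) and P1 and P2 (replicates 1 and 2 of Id2-GFP+ pre-CD8). All levels are log2 of normalized intensity, and all differences are Id2-GFP+ minus Id2-GFP- on that scale with the standard error (SE) of the limma fit, so that a difference of 1 is a doubling. Mean intensity set N1 and P2 (461 and 467) apart from N2 and P1 (406 and 407), and the 4 CDP arrays split the same way. Each group therefore holds 1 array of a brighter and 1 of a dimmer set, and the set cancels in the difference of the group means. Differences are also given within the brighter pair (P2 minus N1) and the dimmer pair (P1 minus N2). Replicates correlated across genes with r of 0.988 for N1 and N2 and of 0.989 for P1 and P2.

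By limma, 711 of 19938 genes (3.57%) rose in Id2-GFP+ pre-CD8 cells and 538 (2.70%) fell at an adjusted p under 0.05, 1249 (6.26%) in all. With the array set as a block these counts were 2197 and 2625, together 4822 of 19938 (24.2%), and all 1249 genes were among them. Each of the 711 and 538 genes had the same direction in both pairs of arrays and no overlap between the groups, which over all genes held for 3795 with both Id2-GFP+ arrays above (19.0%) and 4289 with both below (21.5%). The median size was 1.49 among genes that rose and -1.39 among genes that fell, and the median over all genes was -0.01. A rise above 2 was reached by 191 genes, and 99 genes fell by more than that. The calls did not all hold when 1 array was left out: 275 to 409 genes rose without P2, N2 or N1, and 191 to 302 fell without any 1 of the 4 pre-CD8 arrays. Of the genes called, 263 that rose and 147 that fell kept their call without each of the 8 arrays in turn. Leaving out 1 pre-CD8 array leaves the brighter and dimmer sets unequal between the groups, so the set no longer cancels in their difference. In bulk samples, fewer cells of a type and less RNA per cell cannot be told apart, and this holds for every result given here.

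**Figure D1:**
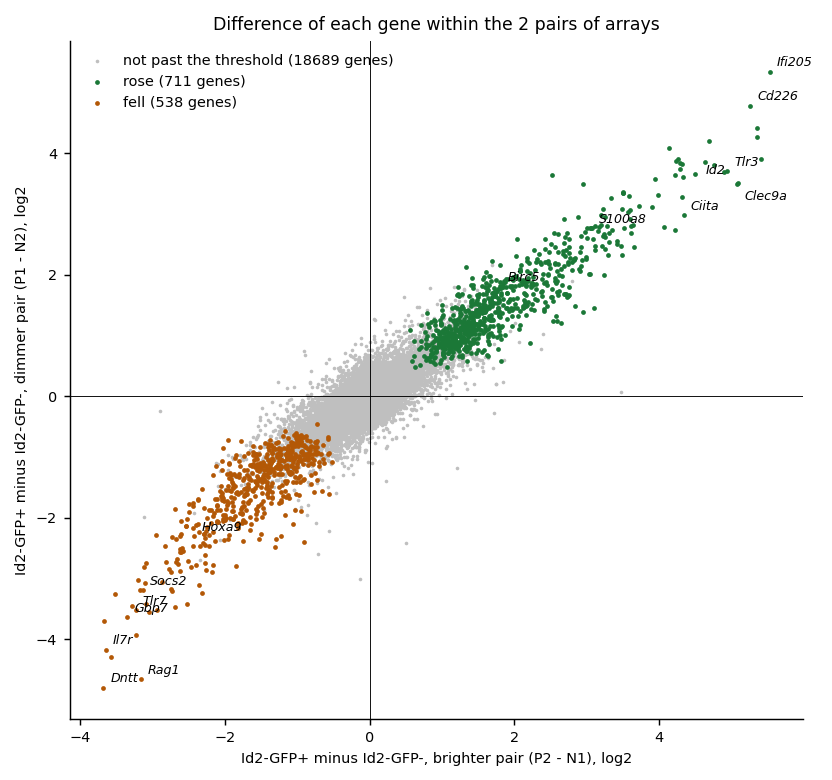
Difference (Id2-GFP+ minus Id2-GFP-, log2) of each of 19938 genes within the dimmer pair of arrays (vertical axis) against the brighter pair (horizontal axis). Green points are the 711 genes that rose, brown points the 538 that fell and grey points the rest, and all coloured points lie in the lower left or upper right part of the plot.

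Id2, the gene that the titles and sources name for the reporter, lay at 5.90 and 7.18 on N1 and N2 and at 10.69 and 10.99 on P1 and P2. The difference was 4.30 ± 0.48 (adjusted p = 0.00215), or 5.09 in the brighter and 3.51 in the dimmer pair, so the transcript followed the titles on every array. N2 was the higher of the Id2-GFP- arrays, and the groups did not overlap. The other Id genes did not pass the test: Id1 measured 5.62 and 5.39 on N1 and N2 against 5.79 and 5.80 on P1 and P2, and Id3 had levels of 5.07 and 5.49 on N1 and N2 and of 5.18 and 5.15 on P1 and P2, with differences of 0.29 ± 0.25 and -0.12 ± 0.18. Zbtb46, a transcription factor of conventional dendritic cells and the gene of the other reporter named in the labels, lay at 5.50 and 6.12 on N1 and N2 and at 7.68 and 8.04 on P1 and P2, a rise of 2.05 ± 0.29. Its groups did not overlap either, so the transcripts do not settle which of these reporters was sorted.

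The labelled cell type was set against markers. Flt3, the growth factor receptor of dendritic cell progenitors, measured 12.58 and 12.23 on N1 and N2 against 11.05 and 11.53 on P1 and P2. Kit, the stem cell factor receptor, had levels of 11.48 and 10.44 on N1 and N2 and of 10.78 and 11.68 on P1 and P2, with groups that overlapped. Xcr1, the chemokine receptor of mature cDC1, lay at 5.20 and 4.82 on N1 and N2 and at 4.84 and 5.66 on P1 and P2, below the median of all probe sets on each array (6.16 to 6.27). Cd79a, a defining gene of B cells, measured 5.49 and 5.11 on N1 and N2 against 4.85 and 5.07 on P1 and P2, also below that median, and Cd3e, of T cells, had levels of 6.08 and 6.23 on N1 and N2 and of 6.30 and 6.26 on P1 and P2, close to it. The arrays give no detection call, so whether such genes were expressed cannot be read from these levels. Cd79a does not stand for the early lymphoid genes as a whole. Il7r measured 10.14 and 10.52 and Rag1 8.58 and 9.50 on N1 and N2. Of the 20 measured genes of the B lineage and early lymphoid list, 9 fell and 1 rose, as given below.

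The 15 genes with the largest rises, Id2 among them, were described first. Ifi205, of the interferon-inducible Ifi200 family of nucleic acid sensors, lay at 6.30 and 6.39 on N1 and N2 and at 11.73 and 11.83 on P1 and P2, a difference of 5.44 ± 0.37 (adjusted p = 0.000453). Cd226, an adhesion receptor shared by cytotoxic lymphocytes and cDC1, measured 4.48 and 4.51 on N1 and N2 against 9.29 and 9.74 on P1 and P2. In both genes the groups were more than 4 apart and the replicates lay close together. Serpinb10, a serpin of bone marrow cells, had levels of 4.30 and 4.96 on N1 and N2 and of 9.37 and 9.66 on P1 and P2. Plbd1, a phospholipase-like lysosomal protein, lay at 7.47 and 8.07 on N1 and N2 and at 12.34 and 12.83 on P1 and P2. Naaa, the lysosomal amidase that breaks down palmitoylethanolamide, measured 7.18 and 6.80 on N1 and N2 against 11.01 and 11.87 on P1 and P2. Slamf7, a homophilic receptor of the SLAM family, had levels of 5.07 and 5.92 on N1 and N2 and of 9.81 and 10.49 on P1 and P2. P2 was the highest array for each of these 6 genes. Both Id2-GFP+ arrays were above both Id2-GFP- arrays, which was a condition of their choice.

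Tlr3, the endosomal sensor of double-stranded RNA, lay at 5.69 and 5.77 on N1 and N2 and at 9.48 and 10.63 on P1 and P2, and Clec9a, the receptor of cDC1 for dead cells, measured 5.47 and 6.28 on N1 and N2 against 9.78 and 10.55 on P1 and P2. P2 was the higher Id2-GFP+ array for both, and their differences were 4.32 ± 0.35 and 4.29 ± 0.40. Ccr2, the receptor for the chemokine Ccl2 that guides monocytes, had levels of 6.97 and 6.98 on N1 and N2 and of 11.06 and 11.11 on P1 and P2, with replicates almost equal. Clec4b1, a C-type lectin of dendritic cells, lay at 3.34 and 3.17 on N1 and N2 and at 7.07 and 7.60 on P1 and P2. Cd22, an inhibitory sialic acid receptor best known on B cells, measured 5.91 and 6.98 on N1 and N2 against 10.67 and 10.80 on P1 and P2. L1cam, a neural adhesion protein, Aif1, an actin-bundling protein of macrophages, and Slc46a3, a lysosomal transporter, rose by 4.28, 4.24 and 4.08. The 15 genes with the largest rises held whichever of the 8 arrays was left out.

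The 15 largest falls followed. Dntt, the terminal transferase that adds nucleotides at antigen receptor joints, had levels of 11.86 and 12.07 on N1 and N2 and of 7.28 and 8.17 on P1 and P2, a fall of 4.24 ± 0.47 (adjusted p = 0.00203). Rag1 and Rag2 encode the recombinase that cuts antigen receptor genes. Rag1 lay at 8.58 and 9.50 on N1 and N2 and at 4.84 and 5.42 on P1 and P2, and Rag2, outside the 15, measured 7.70 and 7.61 on N1 and N2 against 4.53 and 4.60 on P1 and P2. The CDP arrays had Rag2 at 4.85 to 4.97, so that N1 and N2 were the arrays that stood apart. Il7r, the receptor for interleukin 7, had levels of 10.14 and 10.52 on N1 and N2 and of 6.35 and 6.49 on P1 and P2, and Blnk, an adaptor of the B cell receptor, lay at 9.58 and 10.37 on N1 and N2 and at 6.08 and 6.01 on P1 and P2. Socs2, an inhibitor of cytokine signalling that Stat5 induces, measured 9.08 and 9.14 on N1 and N2 against 5.95 and 5.94 on P1 and P2, with replicates that differed by 0.06 or less in both groups. Cmah, which makes N-glycolylneuraminic acid, and Myl10, a myosin light chain, fell, at -3.69 and -3.58, and the somatostatin receptor gene Sstr2 at -3.30.

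The remaining large falls were Gbp7 and Gimap6, GTPases described with their families below, and the genes given here. Tlr7, the sensor of single-stranded RNA that pDC depend on, had levels of 9.57 and 9.17 on N1 and N2 and of 5.66 and 6.33 on P1 and P2, opposite in direction to Tlr3. Il12a, the p35 subunit of interleukin 12, lay at 10.16 and 10.52 on N1 and N2 and at 7.27 and 6.65 on P1 and P2, and Cd69, an early activation receptor, measured 10.42 and 9.71 on N1 and N2 against 6.26 and 7.13 on P1 and P2. Arpp21, an RNA-binding phosphoprotein, and Slc18a1, a vesicular monoamine transporter, fell, at -3.25 and -3.23. Values of the 15 genes with the largest falls did not overlap between the groups, which was a condition of their choice. Their calls held without each of the 8 arrays.

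**Figure D2:**
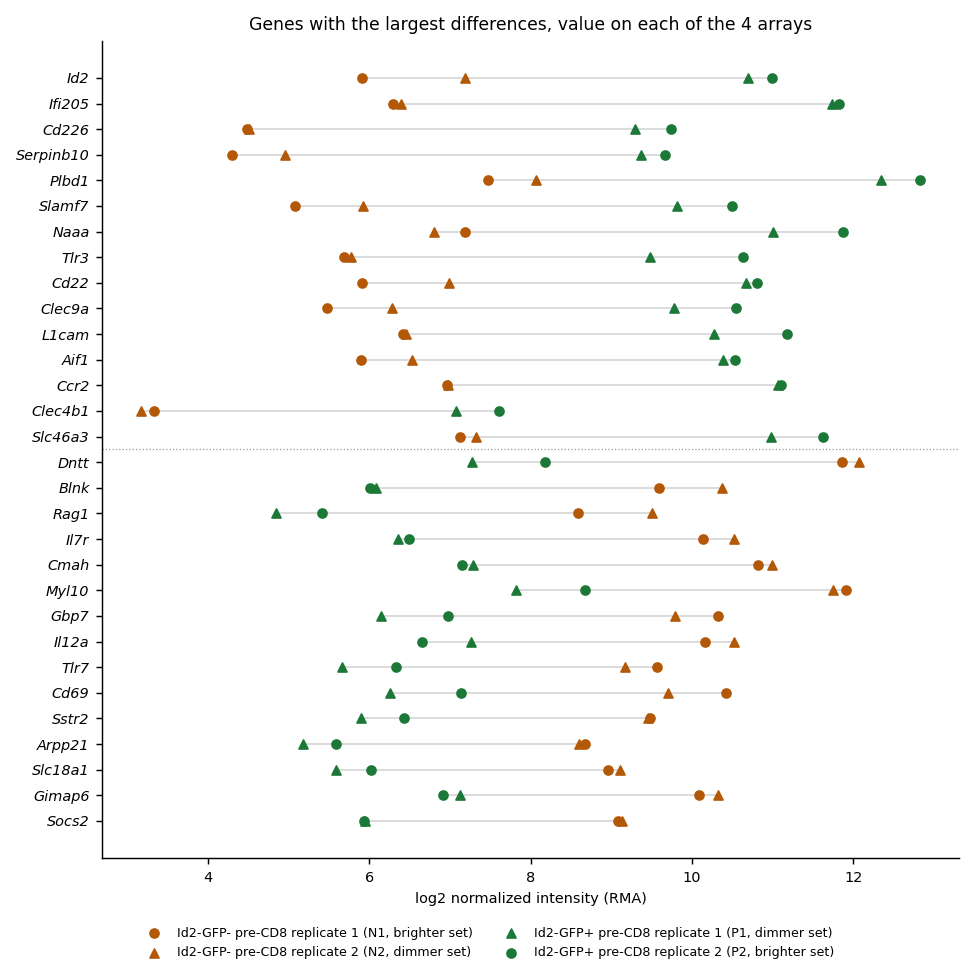
Log2 normalized intensity (horizontal axis) of Id2, the other 14 genes with the largest rises (above the dotted line) and the 15 with the largest falls (below it) on each of the 4 arrays. Green symbols are Id2-GFP+ and brown symbols Id2-GFP- arrays, with circles for the brighter and triangles for the dimmer set. In each gene the green and brown symbols are apart, as the choice of genes required.

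The genes were next grouped by role. Of 23 measured markers of cDC1 identity, 15 rose and 0 fell, with a list median of 1.70 (1.96 and 1.33 within the brighter and dimmer pair), against 3.57% and 2.70% of all genes. Counts of the other lists are read against the same shares. The fit with the array set as a block is called the block from here on. Its counts are read by direction, against 2197 rising and 2625 falling of all 19938 genes, together 24.2%. Batf3, the transcription factor that cDC1 require, had levels of 6.89 and 7.24 on N1 and N2 and of 10.04 and 10.18 on P1 and P2, and rose by 3.04 ± 0.23. Irf8, its partner factor, was already high in Id2-GFP- cells: it lay at 11.45 and 12.10 on N1 and N2 and at 12.83 and 13.01 on P1 and P2, a rise of 1.14 ± 0.22. Rab7b, an endosomal GTPase, rose by 3.44, Gcsam, a signalling adaptor, by 1.95, and Wdfy4, needed for cross-presentation, by 1.35. Tlr12, an endosomal sensor of protozoan profilin, measured 5.71 and 6.49 on N1 and N2 against 8.49 and 8.94 on P1 and P2. Snx22, a sorting nexin of endosomes, rose by 2.08, and Btla and Cd24a, surface proteins used to recognise cDC1, by 1.70 and 0.59. Xcr1 and Cadm1, with differences of 0.24 ± 0.27 and 0.71 ± 0.25, were among the members that did not pass, and Cadm1 passed with the block (adjusted p = 0.00211). Irf8 lost its call without N1, P1 or P2 (adjusted p of 0.0915, 0.066 and 0.146), Wdfy4 without N2 or P2 (0.0768 and 0.0944), and Btla and Cd24a without 3 and all 8 of the arrays. The list count was 11 to 14 without any 1 array, and the block raised it to 17.

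Markers shared by conventional dendritic cells rose in 9 of 16, and 1 fell, with a median of 1.49. Bcl6, a repressor that cDC1 need, had levels of 6.64 and 6.37 on N1 and N2 and of 8.99 and 9.34 on P1 and P2, and Mycl, a Myc family factor of dendritic cells, lay at 7.55 and 7.93 on N1 and N2 and at 9.57 and 9.93 on P1 and P2. Their rises were 2.66 ± 0.21 and 2.01 ± 0.23, and neither gene's groups overlapped. Anpep, the aminopeptidase CD13, and Kmo, an enzyme of tryptophan breakdown, rose by 2.97 and 2.21, and Itgax, the integrin CD11c, by 1.89 ± 0.43. The member that fell was Flt3, by 1.11 ± 0.26, whose call was lost without any 1 of the 4 pre-CD8 arrays or either Id2-GFP- CDP array (adjusted p up to 0.241). Itgax lost its call without any 1 pre-CD8 array (up to 0.249). Of 17 cDC2 markers 4 rose and 0 fell, with a median of 0.47 and counts of 9 and 1 once the array set was a block. They were the inhibitory lectin Clec4a2, which measured 4.67 and 5.07 on N1 and N2 against 7.84 and 8.19 on P1 and P2, the lectin Cd209a, the fractalkine receptor Cx3cr1 and the T-box factor Tbx21, at 3.43, 1.09 and 0.94. The last 3 lost their calls without N1 or P2 and the cDC2 count was then 1. Sirpa and Irf4, which define cDC2, had differences of -0.58 ± 0.23 and -0.14 ± 0.22 and did not pass.

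The pathway of MHC class II, which shows peptides to CD4 T cells, had the highest list median at 3.34 (3.60 and 2.98 within the pairs), with 8 of 11 members rising. Of the chains, H2-Aa had levels of 8.88 and 9.03 on N1 and N2 and of 12.68 and 13.11 on P1 and P2 and H2-Eb1 lay at 8.15 and 8.16 on N1 and N2 and at 11.78 and 12.48 on P1 and P2. H2-Ab1 measured 9.47 and 9.52 on N1 and N2 against 12.59 and 13.07 on P1 and P2, and the invariant chain Cd74 had levels of 8.16 and 8.85 on N1 and N2 and of 12.12 and 12.48 on P1 and P2. Ciita, the coactivator that controls these genes, lay at 5.80 and 6.27 on N1 and N2 and at 9.25 and 10.14 on P1 and P2, a rise of 3.66 ± 0.32 (adjusted p = 0.000858). The rises of the chains were close in size, between 3.34 and 3.98. Ifi30, a reductase that opens antigen disulfides, H2-Oa and the protease Ctss rose by 4.07, 1.69 and 1.14. H2-Ob, the partner of H2-Oa in the dimer that opposes peptide loading, fell by 1.21, a call lost without N1, N2 or P1 (adjusted p of 0.0739, 0.0675 and 0.0709). So the 2 chains of that dimer moved in opposite directions. When 1 array was left out, calls were lost for Ctss without N1, N2 or P2 (adjusted p up to 0.11).

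Promoter sequence was read for 2 of these chains, H2-Aa and H2-Eb1, because they moved together and because class II promoters are known to hold a CCAAT sequence; promoters of H2-Ab1 and Cd74 were not analysed here. In RefSeq's table (GRCm38.p6, 250 bases before to 50 after each start), 15614 of the genes tested had a promoter, 19177 promoters in all. CCAAT, on either strand and counted whether or not it overlapped another motif, was found in 7 of 11 promoters (63.6%), which belong to 8 of the 11 genes of the class II list, and in 37.4% of all promoters. The 150 bases before the start are printed on the gene's strand, with CCAAT or its complement ATTGG in capitals; these members were chosen because they hold matches there.
H2-Aa, chr17:34287824-34287973, minus strand: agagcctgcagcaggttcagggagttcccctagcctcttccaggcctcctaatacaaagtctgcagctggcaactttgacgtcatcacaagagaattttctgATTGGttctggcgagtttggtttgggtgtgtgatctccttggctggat
H2-Eb1, chr17:34305717-34305866, plus strand: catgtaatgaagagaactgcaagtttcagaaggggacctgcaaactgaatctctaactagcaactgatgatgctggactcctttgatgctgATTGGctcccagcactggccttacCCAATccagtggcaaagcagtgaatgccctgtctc
The matches begin at base -48 in H2-Aa and at -59 and -35 in H2-Eb1, counted from the start. A match is a run of letters in this window and shows no binding.

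MHC class I shows peptides to CD8 T cells. Of 21 genes of class I and cross-presentation, 4 rose and 0 fell, and the median was 0.13. Those that rose were Cyba and Cybb, both membrane subunits of the NADPH oxidase that limits acidity in phagosomes, and Rab43 and Tapbp, which serve cross-presentation and peptide loading. Cyba measured 10.86 and 10.81 on N1 and N2 against 12.22 and 12.37 on P1 and P2, and Cybb had levels of 7.31 and 7.55 on N1 and N2 and of 9.79 and 10.13 on P1 and P2. Their rises were 1.46 ± 0.15 and 2.54 ± 0.30, with Rab43 at 1.97 and Tapbp at 1.08. The count was 2 without N1 or N2, and the block on the array set gave 8 rising and 3 falling. Nlrc5, the coactivator of class I genes, differed by -0.78 ± 0.32 and did not pass, although it was lower in both pairs and passed with the block (adjusted p = 0.00071). Leaving out 1 array ended the calls of Rab43 without N1 or N2 and Tapbp without N1, N2 or P2 (adjusted p up to 0.11).

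Of 28 cathepsin and lysosome genes 8 rose and 2 fell, with a median of 0.44. Ctsh, an aminopeptidase cathepsin, lay at 8.22 and 9.13 on N1 and N2 and at 11.46 and 11.70 on P1 and P2. Psap, the precursor of saposins, and Grn, progranulin, rose by 1.29 and 1.50, and Tfeb, the factor that drives lysosomal genes, by 1.10. Lgmn and Ctsz, asparaginyl endopeptidase and cathepsin Z, rose by 0.91 and 1.41. The channel Mcoln2 fell by 1.77 and the cathepsin Ctsf by 0.85. Without N1, N2 or P2 the rising count was 4, 4 or 3, and the falling count was 1 without any 1 pre-CD8 array or either Id2-GFP- CDP array; with the block the counts were 15 and 5. Of 28 lectin, scavenger and uptake receptors 2 rose and 2 fell, near the 3.57% and 2.70% of all genes, with a median of 0.05 and block counts of 6 rising and 5 falling. The members called were Clec5a (2.23) and Scarb2 (1.07) upward and Lrp1 and Cd93 downward, and Lrp1, a large receptor that clears lipoproteins and proteases, measured 8.50 and 8.45 on N1 and N2 against 6.53 and 6.74 on P1 and P2. The rising count was 1 without any 1 of N1, N2, P2 or the Id2-GFP- CDP arrays. Ly75 (DEC-205) and Axl differed by 0.40 ± 0.22 and 1.23 ± 0.30 and did not pass. Calls did not hold without 1 array for Tfeb without N1 or P2, Lgmn without any 1 pre-CD8 array or either Id2-GFP- CDP array, Ctsz without N2 or P2, Ctsf without any 1 of the 8 arrays and Scarb2 without N1, N2, P2 or either Id2-GFP- CDP array (adjusted p up to 0.273).

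Toll-like receptors and their adaptors rose in 8 of 24 and fell in 1, with a median of 0.70. Tlr1, which pairs with Tlr2 on lipopeptides, had levels of 5.40 and 5.84 on N1 and N2 and of 8.29 and 9.05 on P1 and P2, and Tlr9, the sensor of unmethylated DNA, lay at 7.79 and 8.16 on N1 and N2 and at 9.88 and 10.37 on P1 and P2. Tlr13, a sensor of bacterial ribosomal RNA, rose by 0.98, Cd180, a relative of Tlr4, by 1.49 and the kinase Irak2 by 1.34. With Tlr3, Tlr9, Tlr12 and Tlr13 rising and Tlr7 falling, members of the endosomal class moved both ways. Tlr2, Tlr4 and Unc93b1, the chaperone of endosomal Tlrs, differed by 0.84 ± 0.26, 0.98 ± 0.29 and 0.89 ± 0.28 and did not pass. Rising members numbered 4, 5 or 4 without N1, N2 or P2 and 14 with the block. Of 22 cytosolic sensors and inflammasome genes 3 rose and 2 fell (8 rising and 7 falling with the block). Naip6 and Naip2, which sense bacterial proteins, rose by 2.42 and 1.99, and the adaptor Pycard by 1.00. Ddx58, the RNA sensor RIG-I, measured 9.74 and 9.38 on N1 and N2 against 6.60 and 7.58 on P1 and P2, a fall of 2.47 ± 0.40, and Nlrp1a fell by 1.39. The rising count was 1 without N2 or P2, and the falling count was 0 without N1 (adjusted p of 0.0513 for Ddx58) and 1 without N2, P1, P2 or either Id2-GFP- CDP array. Calls lost when 1 array was left out were those of Tlr13 without N1, N2, P2 or either Id2-GFP- CDP array, Cd180 without any 1 pre-CD8 array, Irak2 without N1, N2 or P2, Naip2 and Pycard without N2 or P2 and Nlrp1a without any 1 pre-CD8 array or either Id2-GFP- CDP array (adjusted p up to 0.264).

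The Ifi200 family, a cluster of neighbouring genes on mouse chromosome 1, was divided: 4 of 9 members rose and 2 fell. Beside Ifi205, Ifi207 had levels of 6.75 and 6.41 on N1 and N2 and of 10.25 and 11.05 on P1 and P2, and Ifi209 lay at 9.10 and 9.32 on N1 and N2 and at 10.84 and 11.25 on P1 and P2. Ifi203 rose by 0.81. In the opposite direction Ifi206 measured 8.01 and 7.88 on N1 and N2 against 5.21 and 5.35 on P1 and P2, and Ifi213 had levels of 6.35 and 6.25 on N1 and N2 and of 4.34 and 4.88 on P1 and P2. The median of the list was 0.20, so its direction rests on which member is read. Paralogs of this family are similar in sequence, and probes could respond to more than 1 of them, which makes the single values less certain. When 1 array was left out, calls were lost for Ifi203 without any 1 of the 8 arrays (adjusted p up to 0.299).

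Interferon response genes were mostly lower. Of 32, 9 fell and 2 rose, with a median of -0.77 (-0.68 and -0.72 within the pairs). Rtp4, a chaperone of receptors that interferon induces, lay at 10.42 and 10.04 on N1 and N2 and at 6.58 and 7.73 on P1 and P2, and Oasl2, an antiviral oligoadenylate synthetase-like protein, measured 9.90 and 9.76 on N1 and N2 against 6.87 and 7.71 on P1 and P2. P2 was above P1 in both, and both stayed below either Id2-GFP- array. Ifit1, which binds foreign RNA caps, fell by 2.24, Oas2 by 1.70, Isg20, an exonuclease, by 1.06 and Ifitm2 by 1.14. Ifitm6, an interferon-induced membrane protein of myeloid cells, had levels of 5.23 and 5.20 on N1 and N2 and of 7.99 and 8.34 on P1 and P2 and Samhd1, which degrades nucleotides, rose by 1.28. The falling count was 2, 3 or 3 without N1, P1 or P2, the rising count was 1 without N1, N2 or P2, and with the block 6 rose and 19 fell. Irf9, which carries the interferon signal to DNA, differed by 0.15 ± 0.20 and did not pass. Leaving out 1 array ended the calls of Ifit1 without N1 or P1, Oas2 without N1, P1, P2 or either Id2-GFP- CDP array, Isg20 without any 1 pre-CD8 array or either Id2-GFP- CDP array, Ifitm2 without N1 or P2 and Samhd1 without N1, N2 or P2 (adjusted p up to 0.233).

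GTPases of immunity fell in 13 of 17 and rose in 0, the lowest list median at -2.12 (-1.96 and -2.13 within the pairs). The list joins the GIMAP family, known for lymphocyte survival, with the GBP and IRG families, which attack vacuoles of pathogens. Gimap6 lay at 10.09 and 10.32 on N1 and N2 and at 7.13 and 6.91 on P1 and P2, and Gimap9 measured 9.15 and 8.94 on N1 and N2 against 6.12 and 6.68 on P1 and P2. Gimap1, Gimap5, Gimap7 and Gimap8 fell, at -2.04, -2.33, -2.41 and -0.77. Members of the other branch fell alongside: Gbp7 had levels of 10.33 and 9.78 on N1 and N2 and of 6.15 and 6.97 on P1 and P2, Gbp4 lay at 9.62 and 10.51 on N1 and N2 and at 8.16 and 7.67 on P1 and P2, and Gbp5, Gbp3 and Iigp1 fell, at -2.45, -2.12 and -2.32. The count was 7 without N2, P1 or P2 and 14 with the block. Irgm1 differed by -0.34 ± 0.53 and its groups overlapped. Calls did not hold without 1 array for Gimap7 without N2 or P2, Gimap8 without any 1 pre-CD8 array or either Id2-GFP- CDP array, Gbp4 without P2, Gbp5 without N1 or P1, Gbp3 without any 1 pre-CD8 array and Iigp1 without N1, N2 or P1 (adjusted p up to 0.222).

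Many genes that interferon induces are known for a promoter element, whose core, GAAA followed after any 2 bases by another GAAA, was searched on either strand. It was found in 13 of 29 promoters of the interferon response list (44.8%), in 4 of 5 promoters (80%) of the GBP and IRG genes (only 4 of 9 of these genes had one in the table), in 0 of 9 promoters (0%) of the GIMAP genes and in 3.27% of all promoters. Among the members of both lists that fell the count was 5 of 19 promoters (26.3%). Gbp7 is printed, since it had the largest fall of these members and holds a match, which begins at base -53 and is in capitals as its complement.
Gbp7, chr3:142530186-142530335, plus strand: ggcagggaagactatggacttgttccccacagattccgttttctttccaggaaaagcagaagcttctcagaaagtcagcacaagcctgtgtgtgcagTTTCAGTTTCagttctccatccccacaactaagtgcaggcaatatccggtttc
The same 150 bases of Oasl2 and Ddx58 hold no such run, which says nothing of the factors that act there.

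Among early lymphoid and B lineage genes 9 of 20 fell and 1 rose, with a median of -0.68, and summed intensity of the list was 8737 and 10107 on N1 and N2 against 2477 and 2918 on P1 and P2. Beside Dntt, Rag1, Rag2 and Il7r, Ebf1, a factor that specifies B cells, measured 7.44 and 8.06 on N1 and N2 against 4.85 and 4.71 on P1 and P2. Cd72, a B cell co-receptor, and Bank1, a B cell scaffold, fell, at -2.71 and -1.95. Blk, a B cell kinase, and Vpreb1, part of the surrogate light chain, fell, at -1.13 and -1.14. Fcrla, an intracellular Fc receptor-like protein, was the member that rose, and it had levels of 5.65 and 5.87 on N1 and N2 and of 8.40 and 8.33 on P1 and P2. Pax5 and Cd79a differed by -0.74 ± 0.25 and -0.34 ± 0.24 and did not pass. In the Fc receptor and ITAM adaptor list 6 of 32 rose, among them the myeloid adaptors Tyrobp and Fcer1g at 1.49 and 1.48, and 5 fell, or 3 without N2 or P1 (11 rising and 7 falling with the block). Of its genes of antigen receptor signalling the adaptor Lat fell by 2.51 and the phospholipase Plcg1 by 1.57, while the kinase Syk and the adaptor Lcp2 differed by -0.16 ± 0.29 and -0.66 ± 0.30 and did not pass. Lax1, an adaptor outside the list, fell by 3.11. Calls lost when 1 array was left out were those of Blk without N2, P1 or P2, Vpreb1 without any 1 pre-CD8 array and Fcer1g without P2 (adjusted p up to 0.164).

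E proteins are known to bind E boxes, and the E boxes CACCTG and CAGCTG were searched in the 150 bases before the start of Rag1, Rag2, Dntt and Il7r. Rag1 is printed because it holds matches, CACCTG at base -135 and CAGCTG at -128, marked in capitals; Rag2, Dntt and Il7r hold neither there.
Rag1, chr2:101649533-101649682, minus strand: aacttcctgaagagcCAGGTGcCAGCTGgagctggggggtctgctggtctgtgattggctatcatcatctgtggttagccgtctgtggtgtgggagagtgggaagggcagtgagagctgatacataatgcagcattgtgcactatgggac
CACCTG, on either strand, lay in 3 of 9 promoters of the B lineage genes that fell (33.3%), in 20.9% of promoters of all genes that fell, in 16.9% of those that rose and in 19.6% of all promoters. CAGCTG lay in 11.1%, 16.6%, 17.9% and 16.3% of the same sets. The counts of the small set are too few to set against these shares.

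Markers of pDC fell in 5 of 18 and rose in 1 (with the block 8 and 2), with a median of -0.28. Ccr9, a homing receptor, lay at 8.15 and 8.71 on N1 and N2 and at 6.36 and 6.62 on P1 and P2. Tcf4, the E protein of pDC, measured 10.77 and 10.77 on N1 and N2 against 9.87 and 9.84 on P1 and P2, a fall of 0.91 ± 0.19, and Bcl11a, a zinc-finger factor of B cells and pDC, fell by 0.80. Upb1, an enzyme of pyrimidine breakdown, was the member that rose, at 2.78. Siglech, Bst2 and Spib, which define pDC, differed by -1.66 ± 0.60, 0.24 ± 0.22 and 0.26 ± 0.33, and none passed. N2 stood apart in Siglech at 10.44 against 8.53 on N1. The falling count was 3 without P2 or either Id2-GFP- CDP array and 2 without N2 or P1. Tcf4 and Bcl11a each lost their call without any 1 of the 4 pre-CD8 arrays or either Id2-GFP- CDP array, with adjusted p-values up to 0.175 and 0.197.

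Early progenitor genes fell in 11 of 22 and rose in 0, with a median of -1.65 (-1.85 and -1.37 within the pairs). Cd93, a receptor of early haematopoietic cells, had levels of 11.71 and 11.68 on N1 and N2 and of 9.22 and 8.88 on P1 and P2, and Egfl7, a secreted protein of stem cells and vessels, lay at 10.56 and 10.40 on N1 and N2 and at 7.63 and 8.16 on P1 and P2. Cd34, the sialomucin of progenitors, measured 12.06 and 11.74 on N1 and N2 against 10.07 and 10.04 on P1 and P2, and Cd27 had levels of 10.99 and 10.63 on N1 and N2 and of 8.77 and 8.30 on P1 and P2. Erg, an Ets factor of stem cells, lay at 10.06 and 9.61 on N1 and N2 and at 6.88 and 7.24 on P1 and P2, a fall of 2.77 ± 0.38. All 5 were lower on each Id2-GFP+ array, yet Cd34 stayed above 10 there. Mycn and Adgrg1, an adhesion receptor, fell, at -2.04 and -2.96. The count was 7 without N1 or P2 and 18 with the block. When 1 array was left out, calls were lost for Cd34 without N1 or P2 (adjusted p up to 0.0727).

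Homeobox and other developmental factors fell in 12 of 37 and rose in 0. Hoxa9 measured 9.80 and 9.12 on N1 and N2 against 6.83 and 7.38 on P1 and P2, and Hoxa5 had levels of 8.69 and 8.38 on N1 and N2 and of 6.79 and 6.84 on P1 and P2. Hoxa6 and Hoxa3 fell, at -1.57 and -0.92, and Meis1, a cofactor of Hox proteins, at -1.89. Myb and Sox4, factors of immature cells, fell, at -1.29 and -1.76. Notch1 fell by 2.07, while Notch2 and Notch3, also of Notch signalling, differed by 0.89 ± 0.33 and -0.28 ± 0.19 and did not pass. Tcf7l2, of Wnt signalling, fell by 1.82, and Lef1, of the same pathway, differed by 0.10 ± 0.21 and did not pass. Smad3 and Smad7, of TGF-beta signalling, fell by 1.44 and 1.42. Hhex and Mef2c differed by -0.72 ± 0.27 and -0.77 ± 0.20 and did not pass. The list median was -0.49, and the count was 4, 6, 7 or 5 without N1, N2, P1 or P2 and 21 falling and 2 rising with the block. Leaving out 1 array ended the calls of Hoxa6 without N1, P1 or P2, Hoxa3 and Myb without any 1 pre-CD8 array, Meis1 and Smad3 without any 1 pre-CD8 array or either Id2-GFP- CDP array, Sox4 without N1 or P2 and Notch1 without N1, N2 or P1 (adjusted p up to 0.25).

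Of the E protein genes Tcf4 fell, as given above, and the others did not pass. Tcf3, which encodes E2A, lay at 9.20 and 9.05 on N1 and N2 and at 8.84 and 8.90 on P1 and P2, and Tcf12, which encodes HEB, measured 10.36 and 10.16 on N1 and N2 against 9.68 and 10.16 on P1 and P2, with differences of -0.25 ± 0.23 and -0.34 ± 0.27 that did not pass. Of 31 genes of E proteins, Id proteins and their partners, Id2 left out, 5 fell and 2 rose (with the block 8 and 6), with a median of -0.02. Those that fell were Tcf4, Mycn, Lyl1, the Myc antagonist Mxd4 (-1.45) and the LIM cofactor Ldb1 (-1.23), and those that rose were Mycl and the corepressor Cbfa2t3 (0.87). The falling count was 1, 3, 2 or 1 without N1, N2, P1 or P2 and 3 without either Id2-GFP- CDP array, and the rising count was 1 without any 1 of the 8 arrays. Calls did not hold without 1 array for Mxd4 without N1 or P2, Ldb1 without N1, P1 or P2 and Cbfa2t3 without any 1 of the 8 arrays (adjusted p up to 0.316).

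Other transcription factors are given by family. In the Irf, Batf and AP-1 list 4 of 28 rose (Batf3, Irf5, Irf8 and Junb), 0 fell, and Irf5, which drives inflammatory cytokines, had levels of 8.33 and 8.42 on N1 and N2 and of 10.16 and 10.71 on P1 and P2. The count was 2 without N1, P1 or P2, and the block gave 5 rising and 4 falling. Jun lay at 10.04 and 7.36 on N1 and N2 and at 6.99 and 10.69 on P1 and P2, higher by over 2 on the brighter array of each group, so its groups overlapped. Among zinc-finger factors Klf4, a factor of monocytes and cDC2, measured 5.98 and 6.36 on N1 and N2 against 9.28 and 9.58 on P1 and P2, and Klf6 rose by 2.29. Satb1, a chromatin organiser of stem and lymphoid cells, had levels of 12.20 and 11.94 on N1 and N2 and of 10.43 and 10.48 on P1 and P2, and Zeb2, a repressor that pDC and cDC2 need, lay at 9.25 and 8.84 on N1 and N2 and at 6.45 and 7.11 on P1 and P2. Zeb2 fell by 2.26 ± 0.41 and lost its call without N1 or P1 (adjusted p of 0.0809 and 0.0827). That list held 4 rising and 5 falling of 40 (12 rising and 9 falling with the block), with 2, 2, 2 or 3 falling without N1, N2, P1 or P2 and 3 without either Id2-GFP- CDP array. Among Ets, Runx and Cebp factors 3 of 28 rose and 4 fell (7 rising and 9 falling with the block). Spi1, the Ets factor PU.1, measured 9.61 and 9.25 on N1 and N2 against 10.64 and 11.11 on P1 and P2, and Cebpd and Cebpe rose by 1.49 and 1.80, while Etv5, Elk3 and Elf1 fell, at -1.33, -1.54 and -0.72. Rising members numbered 1, 0 or 0 without N1, N2 or P2 and the falling count 1, 2 or 1 without N1, P1 or P2. Nfil3, a factor of early cDC1 commitment, had levels of 9.59 and 10.80 on N1 and N2 and of 10.84 and 9.76 on P1 and P2, with overlapping groups. Of 32 Stat, Socs, NF-kB and nuclear receptor genes 3 fell (Socs2, Cish and Stat4), while the block gave 7 rising and 5 falling, and Cish, like Socs2 an inhibitor that Stat5 induces, lay at 7.96 and 7.42 on N1 and N2 and at 6.15 and 6.09 on P1 and P2. Calls lost when 1 array was left out were those of Spi1 without N2 or P2, Cebpd without N1, N2 or P2, Cebpe without any 1 pre-CD8 array or either Id2-GFP- CDP array, Etv5 without N1 or P2, Elk3 without N1, P1 or P2 and Elf1 without any 1 pre-CD8 array or any 1 of 3 CDP arrays (adjusted p up to 0.277).

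Genes of cell division formed the largest group that rose together. Of 82 genes of the kinetochore, the spindle and chromosome condensation, 55 rose and 0 fell, with a median of 1.40 in the brighter and 1.40 in the dimmer pair. Both Id2-GFP+ arrays were above both Id2-GFP- arrays in 76 of the 82, where this held for 19.0% of all genes. At the kinetochore, which ties chromosomes to the spindle, 15 of 24 rose with a median of 1.37, led by the outer kinetochore gene Nuf2, which measured 7.71 and 7.46 on N1 and N2 against 9.34 and 9.51 on P1 and P2. Ndc80, its partner, had levels of 8.04 and 7.73 on N1 and N2 and of 9.55 and 9.98 on P1 and P2, and the checkpoint kinase gene Bub1b rose by 1.42. Among spindle and cytokinesis genes 27 of 33 rose with a median of 1.61. Prc1, which bundles the central spindle, lay at 6.54 and 6.62 on N1 and N2 and at 8.45 and 8.60 on P1 and P2, and Birc5, survivin, measured 9.69 and 9.30 on N1 and N2 against 11.11 and 11.50 on P1 and P2. Plk1, Aurka and Aurkb, the mitotic kinases, rose by 1.61, 1.55 and 1.69. Of 25 genes of condensation and the anaphase-promoting complex 13 rose with a median of 1.14, and Ube2c, the complex's ubiquitin-conjugating enzyme, had levels of 7.44 and 7.26 on N1 and N2 and of 9.05 and 9.28 on P1 and P2. When 1 array was left out, calls were lost for Bub1b without N1, N2 or P2 and Plk1, Aurka and Aurkb without N2 or P2 (adjusted p up to 0.154).

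Most of these calls were lost without P2 or N2. Fewer were lost without N1 or P1. Removing any 1 of these 4 arrays leaves the brighter and dimmer sets unequal between the groups. Why the losses differed was not tested. The mitotic lists together had 10 rising genes without P2, 14 without N2, and 79 in the fit with the block. By list, the kinetochore count was 9, 5 or 3 without N1, N2 or P2, the spindle count 6 or 4 without N2 or P2, and the condensation count 3 without either. The level of the median mitotic gene was 8.76 and 8.32 on N1 and N2, 9.54 and 10.09 on P1 and P2, and 9.59 and 9.86 in the means of Id2-GFP- and Id2-GFP+ CDP. Id2-GFP- pre-CD8 was thus the lowest of the 4 groups in that median. The reporter difference in CDP had a median of 0.29 over the same genes. In CDP 0 of 82 passed the threshold in either direction by limma. At an unadjusted p under 0.05, 6 of the 82 were higher in CDP, where 685 of all 19938 genes were. In limma's test of the pre-CD8 difference against the CDP difference, 0 of the 82 genes passed. These counts therefore do not show a mitotic difference particular to pre-CD8.

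Of 34 S phase genes, which act in DNA replication, 1 rose and 0 fell, while with the block 9 rose and 3 fell. The member that rose was Rrm2, a subunit of ribonucleotide reductase, at 1.45 ± 0.30, whose call was lost without N2, P1 or P2 (adjusted p up to 0.181; the count was 2 without N1). The list median was 0.20. Pcna, the sliding clamp, lay at 12.53 and 12.43 on N1 and N2 and at 12.60 and 12.62 on P1 and P2, and the helicase subunit Mcm5 measured 10.91 and 10.33 on N1 and N2 against 10.43 and 10.84 on P1 and P2, each with overlap or near-overlap of the groups. In the list of cyclins, Cdks and their inhibitors 13 of 30 rose and 1 fell (19 rising and 3 falling with the block). They included the inhibitors Cdkn2c and Cdkn2d, which hold Cdk4 and Cdk6, and Cdkn2c had levels of 6.81 and 6.68 on N1 and N2 and of 8.86 and 9.17 on P1 and P2. Cyclin D1, Ccnd1, lay at 9.22 and 8.58 on N1 and N2 and at 10.51 and 10.79 on P1 and P2, and Ccna2, Ccne1, Cdk1 and Ccnb2 rose by 1.37, 1.24, 1.36 and 0.96. Ccnd2 fell by 0.59, a call lost without any 1 of the 8 arrays, and the rising count was 5 without N2 or P2. Ribosome biogenesis genes had a median of -0.49, and 0 of 29 passed by limma in either direction. At an unadjusted p under 0.05, 4 of them were lower, where 1641 of all 19938 genes were lower and 1566 higher. With the array set as a block 20 fell. Leaving out 1 array ended the calls of Ccna2 and Cdk1 without N2 or P2, Ccne1 without N2, P1, P2 or either Id2-GFP- CDP array and Ccnb2 without any 1 pre-CD8 array or either Id2-GFP- CDP array (adjusted p up to 0.299).

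**Figure D3:**
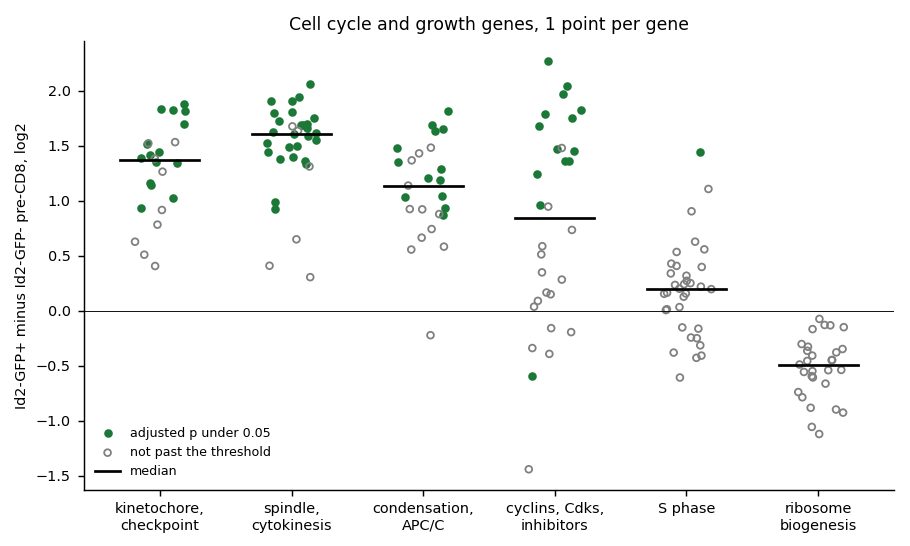
Difference between Id2-GFP+ and Id2-GFP- pre-CD8 cells (vertical axis, log2) for the genes of 6 lists, 1 point per gene, with filled points past the threshold and black lines at the list medians. Most mitotic genes lie above 1, S phase genes lie on both sides of 0 and ribosome biogenesis genes lie below it.

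Promoters of mitotic genes are known for CCAAT boxes and for TTTGAA, the core of the cell cycle homology region. CCAAT was found in 54 of 78 promoters of the mitotic lists (69.2%) against 37.4% of all promoters, and TTTGAA in 50 (64.1%) against 14.8%. For the S phase list the shares were 65.5% for CCAAT and 3.45% for TTTGAA (1 of 29 promoters). Of 6 genes that rose and were searched in the 150 bases before the start, Ube2c, Cdca8 and Ccnb2 hold 3 matches each and are printed. Both motifs or their complements are in capitals. Ccnb2 is from the list of cyclins and is not counted in the shares of the mitotic lists. Plk1 holds 1 match there, and Birc5 and Nuf2 hold none.
Ube2c, chr2:164769779-164769928, plus strand: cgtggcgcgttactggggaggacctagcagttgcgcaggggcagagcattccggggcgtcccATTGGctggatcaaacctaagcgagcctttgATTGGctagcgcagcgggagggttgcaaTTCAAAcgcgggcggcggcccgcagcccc
Cdca8, chr4:124936918-124937067, minus strand: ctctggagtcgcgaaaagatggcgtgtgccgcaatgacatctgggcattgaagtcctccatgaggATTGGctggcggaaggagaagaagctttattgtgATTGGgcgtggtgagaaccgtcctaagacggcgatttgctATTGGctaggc
Ccnb2, chr9:70421555-70421704, minus strand: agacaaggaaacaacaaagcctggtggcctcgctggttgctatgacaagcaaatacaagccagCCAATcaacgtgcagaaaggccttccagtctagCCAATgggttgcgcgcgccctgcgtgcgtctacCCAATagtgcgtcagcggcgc
The CCAAT matches begin at -88 and -57 in Ube2c, at -85, -51 and -11 in Cdca8, a subunit of the chromosomal passenger complex, and at -87, -54 and -21 in Ccnb2. TTTGAA begins at -29 in Ube2c, and in the other 2 it is not within these 150 bases. Among all genes that rose, TTTGAA lay in 19.4% of promoters, and among those that fell in 13.6%.

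A further group that rose was annexins, S100 proteins and galectins, calcium- and sugar-binding proteins of membranes and the cytoskeleton. Of 27, 15 rose and 2 fell, with a median of 1.07. Lgals3, galectin 3, measured 7.24 and 7.09 on N1 and N2 against 10.66 and 11.18 on P1 and P2, S100a6 had levels of 8.11 and 8.33 on N1 and N2 and of 11.41 and 11.59 on P1 and P2, and Anxa2, which binds membranes, rose by 3.15 ± 0.22. Vim, vimentin, was high in both classes and lay at 11.24 and 11.28 on N1 and N2 and at 12.65 and 12.78 on P1 and P2. Anxa1, Anxa5, Lgals1 and S100a4 rose by 2.71, 2.61, 1.07 and 2.84, while Emp1 and Lgals8 fell, at -2.70 and -1.47. The falling count was 1 without N1, P1 or P2 and 3 with the block. Several of these genes are also abundant in neutrophils and monocytes, whose markers are given below. Calls did not hold without 1 array for Lgals8 without N1, P1 or P2 (adjusted p up to 0.0644).

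Enzymes of lipid mediators and lipid metabolism rose in 8 of 32 and fell in 0, with a median of 0.46. Hpgd, which inactivates prostaglandins, measured 5.46 and 5.81 on N1 and N2 against 8.53 and 8.62 on P1 and P2. Plin2, a coat protein of lipid droplets, had levels of 8.82 and 8.78 on N1 and N2 and of 10.65 and 11.07 on P1 and P2. Alox5 and Alox5ap, which make leukotrienes, rose by 2.33 and 0.95, and Asah1, acid ceramidase, by 1.34. The count was 5 without N2 or P2, and with the block 15 rose and 6 fell. In cholesterol and fatty acid synthesis 2 of 26 rose and 3 fell (8 rising and 6 falling with the block): Fdps and Cyp51 by 1.38 and 0.93, against Abca1, the cholesterol exporter, which lay at 8.28 and 7.96 on N1 and N2 and at 6.28 and 6.24 on P1 and P2, and Elovl6 and Fads2, which fell, at -1.10 and -0.86. Each of these counts was 1 without any 1 of the pre-CD8 arrays or without Id2-GFP- CDP replicate 1, and the falling count also without Id2-GFP- CDP replicate 2. Pfkp, phosphofructokinase of platelets, rose by 2.07 ± 0.37 as 1 of 2 among 23 glycolysis and pentose phosphate genes, a call lost without N2 or P2 (adjusted p of 0.0861 and 0.108); that count was 0 without N2 or P2 and 1 without either Id2-GFP- CDP array, and the block gave 5 rising and 6 falling. Oxidative phosphorylation genes had a median of -0.04 with 0 of 26 past the threshold by limma, and 5 rising and 4 falling with the block. At an unadjusted p under 0.05, 2 of the 26 were higher, where 1566 of all 19938 genes were. Calls lost when 1 array was left out were those of Alox5 without N1, N2 or P2, Alox5ap without N2 or P2, Cyp51 without any 1 pre-CD8 array or Id2-GFP- CDP replicate 1 and Elovl6 and Fads2 without any 1 pre-CD8 array or either Id2-GFP- CDP array (adjusted p up to 0.245).

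Of 43 cytokine receptors 4 rose and 5 fell, where 3.57% and 2.70% of all genes did so, and the block gave 16 rising and 16 falling. Il12rb2, a chain of the interleukin 12 receptor, measured 7.48 and 7.11 on N1 and N2 against 8.99 and 9.35 on P1 and P2, and Csf2ra, of the GM-CSF receptor, rose by 1.50. Il18rap, of the interleukin 18 receptor, had levels of 9.47 and 9.51 on N1 and N2 and of 7.34 and 7.03 on P1 and P2, and Csf1r, the receptor of macrophage growth factor, fell by 1.09 ± 0.23, a call lost without any 1 pre-CD8 array or either Id2-GFP- CDP array. The rising count was 2 without P2 and the falling count 2 or 3 without any 1 pre-CD8 array and 3 without either Id2-GFP- CDP array. Among cytokines and chemokines 4 of 41 rose and 4 fell (6 rising and 10 falling with the block), with Ccl6, a myeloid chemokine, at 2.98 and Tnfsf10, the death ligand TRAIL, at -2.62. The counts were 2 rising without N1, N2 or P2 and 2 falling without N1, P1 or P2. Il12b, which encodes the subunit shared by interleukins 12 and 23, lay at 5.31 and 5.31 on N1 and N2 and at 5.38 and 5.27 on P1 and P2, with overlapping groups. When 1 array was left out, calls were lost for Csf2ra without N2 or P2 (adjusted p up to 0.0625).

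Among chemokine receptors and migration genes 7 of 28 rose and 2 fell (12 rising and 5 falling with the block). Beside Ccr2, Cxcr3, a receptor for interferon-induced chemokines, measured 6.51 and 7.19 on N1 and N2 against 8.58 and 9.47 on P1 and P2, and Gpr183, which senses oxysterols, had levels of 6.10 and 6.72 on N1 and N2 and of 8.71 and 8.72 on P1 and P2. P2ry14, a receptor for UDP-glucose, lay at 10.50 and 10.25 on N1 and N2 and at 7.95 and 7.88 on P1 and P2. Cxcr4, which holds cells in marrow, measured 12.80 and 12.39 on N1 and N2 against 12.29 and 12.80 on P1 and P2 with a difference of -0.05 ± 0.26, and Ccr7 differed by -0.79 ± 0.42; neither passed. Without N1 or P2 the rising count was 4. Integrins and adhesion genes rose in 8 of 43 and fell in 3 (with the block in 17 and 8). Itgb7, which guides cells to gut, had levels of 8.01 and 7.89 on N1 and N2 and of 10.36 and 11.23 on P1 and P2, and Cd9, a tetraspanin, lay at 7.01 and 7.19 on N1 and N2 and at 9.56 and 9.91 on P1 and P2. Itgb2, the chain shared by leukocyte integrins, rose by 2.32 and Alcam by 2.00, while the tetraspanins Cd81, Tspan13 and Tspan2 fell, at -2.36, -1.49 and -1.31. The falling count was 0, 1 or 0 without N1, N2 or P1. Leaving out 1 array ended the calls of Cd81 without N1 or P1, Tspan13 without N1, N2 or P1 and Tspan2 without any 1 pre-CD8 array or either Id2-GFP- CDP array (adjusted p up to 0.197).

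Co-stimulatory and inhibitory receptors rose in 10 of 33 and fell in 1, Cd69, with a median of 0.50. Icosl, the ligand of ICOS, measured 6.87 and 6.75 on N1 and N2 against 8.64 and 8.96 on P1 and P2, and Pilra and Cd300lf, inhibitory receptors of myeloid cells, rose by 1.95 and 1.79. The main co-stimulatory genes Cd86 and Cd40 and the inhibitory ligand Cd274 differed by 1.08 ± 0.28, 0.29 ± 0.17 and -0.87 ± 0.30 and did not pass. Rising members numbered 5 or 4 without N1 or P2 and 18 with the block, where 3 fell. In the SLAM family 3 of 11 rose, Slamf8 by 2.50 and Cd48 by 1.15 beside Slamf7, and Cd84 fell by 1.37, a call lost without N1, N2 or P1; the block gave 6 rising and 1 falling. Of 26 complement and coagulation genes 3 rose, among them Cfp, properdin, which had levels of 8.76 and 8.56 on N1 and N2 and of 10.98 and 11.18 on P1 and P2. The complement inhibitor Cd46 was the member that fell, by 1.17, and the falling count was 3 without either Id2-GFP+ CDP array, 0 without N2 or P2 and 6 with the block, where 6 also rose. Calls did not hold without 1 array for Cd48 without P2 and Cd46 without N2 or P2 (adjusted p up to 0.122).

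Of 39 genes of G protein and second messenger signalling 5 rose and 5 fell, where 3.57% and 2.70% of all genes did so, and the block gave 13 rising and 12 falling. Rasgrp4, a Ras activator of myeloid cells, lay at 7.38 and 7.68 on N1 and N2 and at 10.18 and 10.80 on P1 and P2, and Pik3r5, a regulator of PI3 kinase gamma, rose by 1.88. Dusp6 and Dusp2, phosphatases that Erk signalling induces, fell, at -2.36 and -1.71, and Prkca and Prkcq, protein kinases C, at -1.81 and -2.07. The rising count was 3, 2, 3 or 3 without N1, N2, P1 or P2, and the falling count 2 without N1 or P1. Of 26 DNA damage and repair genes 2 rose (Rad51ap1 and Polm) and 2 fell, with a median of 0.03. The block gave 9 rising and 6 falling. Those that fell were Xrcc5 and Xrcc6, which together form the Ku dimer of DNA end joining, at -2.20 and -1.93. Xrcc6 measured 10.05 and 10.14 on N1 and N2 against 8.06 and 8.29 on P1 and P2. The Xrcc5 call was lost without N1, P1 or P2. Of 29 chromatin modifiers 7 fell and 1 rose, Hmgb2 at 0.97. Kdm5b, a histone demethylase, had levels of 9.58 and 9.48 on N1 and N2 and of 7.72 and 7.13 on P1 and P2, and Dnmt3b and Dnmt3a, which add DNA methylation, fell, at -1.59 and -0.91. That falling count was 1, 2, 1 or 1 without N1, N2, P1 or P2 and 3 without either Id2-GFP- CDP array, and the block gave 6 rising and 10 falling. Calls lost when 1 array was left out were those of Dusp6 and Dusp2 without N1 or P1, Prkcq without P1, Hmgb2 without any 1 pre-CD8 array, Dnmt3b without N1, P1 or P2 and Dnmt3a without any 1 pre-CD8 array or any 1 of 3 CDP arrays (adjusted p up to 0.308).

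Markers of other cell types that a sort could hold were measured in the same way. Of 20 neutrophil and granule genes 15 rose and 1 fell, with a median of 2.28. The summed intensity of the list was 19355 and 14534 on N1 and N2 against 44529 and 52140 on P1 and P2. In CDP 14 of these 20 genes rose and 0 fell, where 0.597% and 0.00% of all genes did so. The list median in CDP was 3.41. S100a8, a calprotectin subunit, lay at 9.58 and 9.79 on N1 and N2 and at 12.56 and 12.65 on P1 and P2, and Camp, cathelicidin, measured 10.10 and 10.37 on N1 and N2 against 12.98 and 13.11 on P1 and P2. Ly6g, which defines mature neutrophils, had levels of 5.41 and 5.57 on N1 and N2 and of 7.66 and 8.05 on P1 and P2, while Elane and Csf3r, which define their precursors and receptor, differed by 1.26 ± 0.77 and -1.22 ± 0.56 and did not pass. Mpo fell by 1.96, a call lost without any 1 pre-CD8 array or either Id2-GFP- CDP array, and the rising count was 9, 8 or 8 without N1, N2 or P2; the block gave 16 rising and 3 falling. Monocyte and macrophage genes rose in 6 of 17 and fell in 1 (with the block in 10 and 1), with sums of 4037 and 3741 against 12369 and 13258. Lyz2, lysozyme, lay at 8.11 and 7.96 on N1 and N2 and at 10.19 and 10.57 on P1 and P2, but Cd14 and Fcgr1, which define monocytes, did not pass: Cd14 measured 5.04 and 5.21 on N1 and N2 against 5.37 and 5.50 on P1 and P2, and Fcgr1 had levels of 5.14 and 5.30 on N1 and N2 and of 5.59 and 5.66 on P1 and P2. The part of these cells in the genes that rose, the annexin and S100 group included, was not tested. T, NK and ILC markers rose in 3 of 20 (Ncr1, Thy1 and Gzma, all at 1.15 or less) and fell in 1, Cd247. Without any 1 pre-CD8 array the rising count was 1 or 0, and the falling count was 0 without N1, N2 or P2, and the block gave 8 rising and 5 falling. Of 11 erythroid and megakaryocyte markers and of 14 markers of basophils, mast cells and eosinophils, 0 passed by limma in either direction. At an unadjusted p under 0.05, 1 and 2 were higher and 1 and 0 lower. Of all 19938 genes, 1566 were higher and 1641 lower at that level. The block gave 1 and 4 rising and 1 and 1 falling.

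**Figure D4:**
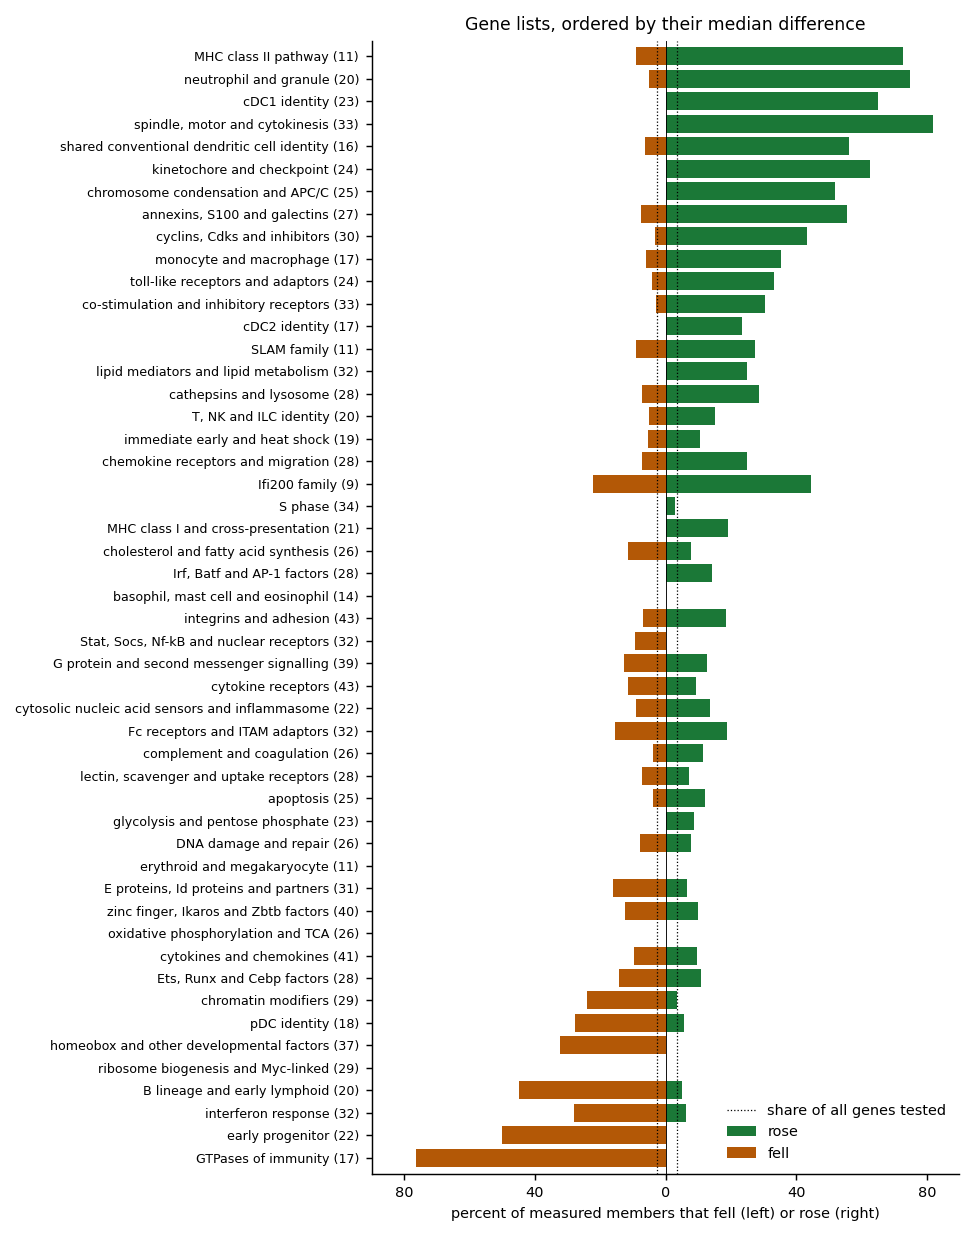
Share of the measured members of each gene list shown (number in brackets) that rose (green, right) or fell (brown, left) in Id2-GFP+ pre-CD8 cells, with the lists in order of their median difference. Dotted lines mark the 3.57% and 2.70% of all genes tested that rose and fell; MHC class II lies at the top of the order and GTPases of immunity at the bottom.

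Finally, the reporter difference in pre-CD8 was compared with that in CDP, a comparison of separate arrays. In CDP 119 genes (0.597%) rose and 0 fell (0.00%) by limma, with 685 higher and 413 lower at an unadjusted p under 0.05. Beside the neutrophil list given above, the genes that rose in CDP included 5 of 11 of the MHC class II list and 5 of 23 cDC1 markers. The CDP medians of these 2 lists were 1.45 and 0.69. Such counts are no test of a difference between CDP and pre-CD8. The genotype field names the Id2-IRES-GFP reporter for Id2-GFP- CDP and the Zbtb46-GFP reporter for the other 3 groups. The comparison within CDP thus also sets different genotype fields against each other. The difference of differences passed in 29 genes (0.145%), 7 with a higher value in pre-CD8 (0.0351%) and 22 with a lower one (0.110%). Id2 was not among them: its difference was 4.30 ± 0.48 in pre-CD8 and 3.79 in CDP. Clec9a lay at 8.92 and 9.65 in Id2-GFP- and at 9.01 and 9.52 in Id2-GFP+ cells in CDP, a difference of -0.02 there against 4.29 in pre-CD8. Its Id2-GFP- pre-CD8 level was thus the low one of the 4 groups. Ccr2 had levels of 9.49 and 9.61 in Id2-GFP- and of 10.63 and 10.25 in Id2-GFP+ cells in CDP, and Ms4a6c, a monocyte gene, lay at 12.25 and 12.14 in Id2-GFP- and at 12.36 and 12.33 in Id2-GFP+ cells. In both, Id2-GFP- pre-CD8 was again below the other 3 groups.

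The 22 genes with a lower value were mostly high in Id2-GFP- pre-CD8 alone. Rag1 had levels of 5.16 and 4.76 in Id2-GFP- and of 5.16 and 5.08 in Id2-GFP+ cells in CDP against 8.58 and 9.50 on N1 and N2, and Il7r lay at 6.77 and 6.62 in Id2-GFP- and at 5.71 and 6.41 in Id2-GFP+ cells in CDP against 10.14 and 10.52. Socs2 had levels of 5.42 and 5.61 in Id2-GFP- and of 5.79 and 5.73 in Id2-GFP+ cells in CDP, below N1 and N2 by more than 3. Lat, Lax1, Cmah, Gimap6 and Cd72 had CDP differences of 0.52, 0.16, -0.19, -0.14 and -0.37, against -2.51, -3.11, -3.69, -3.18 and -2.71 in pre-CD8. AA467197 rose in CDP, by 1.82, and fell by 1.58 in pre-CD8, and it was the 1 gene of the 29 called in opposite directions. These counts moved with each array: 1 gene was higher without Id2-GFP+ CDP replicate 1 and 0 without any 1 of the others, and 14 were lower without Id2-GFP+ CDP replicate 1, 5 without N1, 3 without Id2-GFP+ CDP replicate 2 and 2 without any 1 of the others. With the array set as a block 815 were higher and 677 lower. When 1 array was left out, calls were lost for AA467197 without N2, P1 or P2 (adjusted p up to 0.0711).

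**Figure D5:**
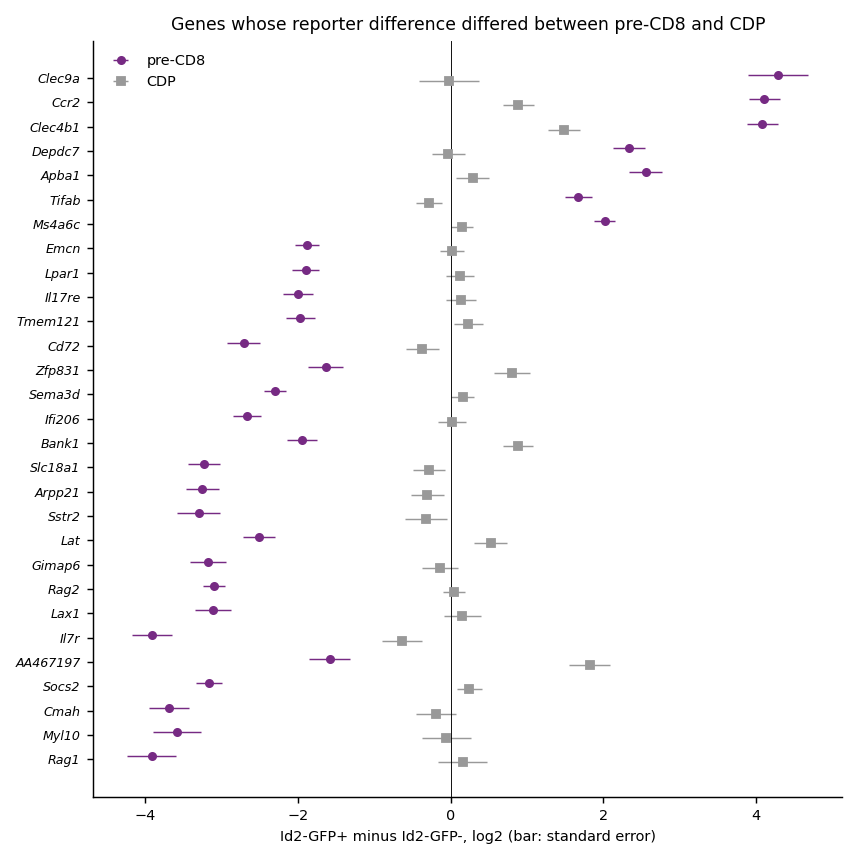
Difference between Id2-GFP+ and Id2-GFP- cells (horizontal axis, log2, bars are SE) in pre-CD8 (purple circles) and in CDP (grey squares) for the 29 genes whose difference of differences passed. In 7 genes, Clec9a first, the pre-CD8 value is the higher one, and in the other 22 it is the lower one.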

How the data were processed

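The submitters' processing notes name RMA in Affymetrix Expression Console, without versions. The deposited values are normalized intensity on a linear scale for 28853 probe sets. RMA corrects background, normalizes across arrays and summarises probes, but the deposited values were not on 1 common distribution: the spread between quartiles of log2 values ran from 3.15 to 3.73 over the 8 arrays. RMA compresses low intensity, so differences of dim genes are understated, and the number of arrays limits the precision. Here log2 was taken, with no further normalization. The array annotation gave 1 symbol to 21789 probe sets, several to 1621 and none to 5443, and the last 2 kinds were left out. 21698 of the 21789 matched RefSeq. For 999 genes with several probe sets the brightest was used, leaving 19938 genes. The test was limma 3.58.1 (R 4.3.3): 4 group means, all 8 arrays, an intensity trend, 8.19 total degrees of freedom, two-sided p-values adjusted by Benjamini-Hochberg over all genes. In simulated data for this comparison (19938 genes, 50 changed per size) the test recovered 48% of changes when their size was log2 1, 98% at log2 2 and 100% at log2 3 and at log2 4, with 4 false calls. The simulated noise was independent between arrays and held no array set, unlike the data, so these shares need not hold for them. Tables and figures were made in Python 3.11.15.

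The 52 gene lists, their members and the tests were chosen with earlier results of these data known. Named genes were Id2, the 15 largest rises and falls past the threshold without overlap between arrays (predicted, olfactory, vomeronasal, small RNA and antigen receptor segment genes left out), members of the lists and defining markers, and genes of the interaction. List members beyond the 5 with the smallest p, and genes outside the lists, were picked after their values were seen. A list is described by its counts and median, with no set test. The alternatives were the array set or the replicate number as a block, the 4 arrays alone, quantile and scale normalization, a filter on mean log2 intensity of at least 6, no trend, the mean of probe sets, a test against log2 1, and leaving out each array.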

Additional observations from a re-analysis of the deposited data

Results flagged for a closer look

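For 29 genes the difference between Id2-GFP+ and Id2-GFP- cells in pre-CD8 was unlike the same difference in CDP by limma's test of the difference itself (adjusted p between 0.00363 and 0.0436), and the values here are the pre-CD8 difference minus the CDP difference on the log2 scale. In 7 genes the value was above 0. The dead cell receptor Clec9a, the chemokine receptor Ccr2, the lectin Clec4b1 and the membrane protein Ms4a6c had values of 4.31, 3.22, 2.60 and 1.87, and Depdc7, Apba1 and Tifab of 2.36, 2.27 and 1.95.

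In 22 genes the value was below 0, and many of them serve lymphocytes. Rag1, Rag2 and Il7r stood at -4.07, -3.13 and -3.28. The adaptors and receptors of lymphocyte signalling Lat, Lax1, Bank1 and Cd72 stood at -3.03, -3.27, -2.84 and -2.34. Gimap6, Ifi206, the cytokine signalling inhibitor Socs2 and the interleukin 17 receptor subunit Il17re had values of -3.04, -2.69, -3.41 and -2.13. Genes best known outside the blood lineages were among them: the semaphorin Sema3d, endomucin (Emcn), the lysophosphatidic acid receptor Lpar1, the somatostatin receptor Sstr2 and the monoamine transporter Slc18a1 had values of -2.46, -1.90, -2.02, -2.98 and -2.95. The remaining genes were Tmem121, Arpp21, Cmah, AA467197, Myl10 and Zfp831 at -2.20, -2.95, -3.50, -3.40, -3.52 and -2.44. No group of 4 or more arrays was present in which 1 array could be set apart from its replicates.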

How the results depend on the processing

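All 4 counts moved by over 1.5 times with the array set as a block, to 2197 rising, 2625 falling, 815 higher and 677 lower than in CDP, with quantile normalization (1305, 1262, 101 and 101) and when 1 array was left out (275 to 711, 191 to 602, 0 to 1 and 2 to 14). Scale normalization gave 1191 rising and, against CDP, 54 higher and 34 lower, and moved the median of all genes to 0.07. The filter on dim genes gave 18 higher than in CDP, and the test against log2 1 left 94 rising and 32 falling. The replicate block gave 498 rising, 340 falling, 1 higher and 5 lower. The pre-CD8 replicate numbers share only a number (r of their deviations -0.68), and the crossed pairing is the array set. The difference of Id2 stayed between 3.66 and 4.94. Of the 326 genes named, 302 or more kept direction and side of the threshold with the 4 arrays alone, the array set, no trend, the mean of probe sets and either normalization, 281 with the replicate block and 132 with the test against log2 1.

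Direction turned in genes that had not passed: Cxcr4 with scale normalization (0.12) and Mcm5 with quantile normalization (-0.08). Leaving out 1 array gave -0.31 to 0.20 for Cxcr4, -0.33 to 0.09 for Id3, -0.04 to 0.07 for Il12b, -0.32 to 0.03 for Irf4, -0.75 to 0.07 for Irgm1, -1.71 to 1.99 for Jun, -0.25 to 0.79 for Kit, -0.15 to 0.36 for Lef1, -0.27 to 0.30 for Mcm5, -0.50 to 0.71 for Nfil3, -0.16 to 0.68 for Spib, -0.48 to 0.17 for Syk and -0.17 to 0.65 for Xcr1. Medians of lists near 0 turned as well. That of lectin and uptake receptors was -0.02 with the filter (0.05 to 0.13 without 1 array). That of cytokines was 0.00 with scale normalization (-0.08 to 0.04). Without 1 array the Stat list gave -0.06 to 0.26, DNA repair -0.06 to 0.16, cholesterol synthesis -0.06 to 0.31, G protein signalling -0.07 to 0.28 and chromatin modifiers -0.35 to 0.02. The cause was not tested. The genes that turned were dim, such as Il12b and Id3, as well as bright, such as Cxcr4 and Kit. Without 1 pre-CD8 array the brighter and dimmer sets are unequal between the groups. Dim genes near background have understated differences.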

Other observations

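Of the 1249 genes that rose or fell, 885 belong to none of the lists. Among those that kept their call without each of the 8 arrays, the genes given here were chosen after the values were seen. Plxdc1, a plexin-domain protein of vessels, rose by 4.05, Shtn1, which links L1cam to actin in growing axons, by 3.65, and the axon guidance gene Srgap3 by 2.81. Cldn1, a tight junction protein, lay at 4.40 and 4.34 on N1 and N2 and at 7.07 and 8.63 on P1 and P2, and Met, the receptor for hepatocyte growth factor, measured 7.39 and 6.20 on N1 and N2 against 9.69 and 10.34 on P1 and P2. Nrp1, a co-receptor for semaphorins and VEGF, rose by 2.51. In all of these genes the groups did not overlap, as in all 1249 genes called. Ffar4, a receptor for long-chain fatty acids, rose by 3.23 and Ptgdr2, for prostaglandin D2, by 2.11. P2ry10 and P2ry6, of the P2Y family, rose by 3.31 and 2.64, while P2ry14, of that family and in a list, fell by 2.46. Zfp366, a dendritic cell zinc-finger protein also called DC-SCRIPT, had levels of 5.89 and 6.41 on N1 and N2 and of 8.43 and 8.94 on P1 and P2, and Zbtb7b, the factor ThPOK of CD4 T cells, lay at 6.48 and 6.38 on N1 and N2 and at 9.05 and 9.72 on P1 and P2. Klrk1, the receptor NKG2D, and Lrrk2, a kinase, rose by 3.15 and 3.10.

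Genes that fell outside the lists included the sex steroid receptors Pgr and Esr1, at -2.28 and -1.92. Pdgfrb, a platelet-derived growth factor receptor, measured 9.94 and 9.90 on N1 and N2 against 7.59 and 7.20 on P1 and P2, and Emcn, endomucin, had levels of 6.76 and 6.60 on N1 and N2 and of 4.81 and 4.78 on P1 and P2. Eng, endoglin, and Gfra1, a receptor for GDNF, fell, at -1.66 and -2.08, as did Hmga2, a chromatin protein of fetal stem cells, at -1.50. Of the enzymes of sialic acid named here, Cmah, St6gal1 and St3gal6 fell, at -3.69, -1.89 and -1.74, and St3gal5, which makes the ganglioside GM3, rose by 2.84.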
